A study of Mus musculus with 19 samples.

Results

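Replication licensing genes were described in mouse mammary glands and HER2/neu mammary tumors by RNA sequencing. The members were the 10 genes of a fixed list, Mcm2, Mcm3, Mcm4, Mcm5, Mcm6, Mcm7, Mcm10, Cdc6, Cdt1 and Gmnn, and all 10 were found by Ensembl identifier among the 46078 genes of the deposited table. Each was measured in all 19 libraries, and each passed the filter on low values in every comparison. Values are normalized counts, which are read counts that the authors divided by a size factor for each library.

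The study asked how mutant p53 in stromal fibroblasts acts on HER2/neu tumors. MMTV-neu drives neu in mammary epithelium, Fsp-Cre drives Cre in fibroblasts, and p53wm-R172H is a conditional allele that yields wild-type p53 until Cre converts it to the R172H mutant. TN tumors (n = 4) were from MMTV-neu;Fsp-Cre mice and TNP tumors (n = 4) from MMTV-neu;p53wm-R172H/+;Fsp-Cre mice. MGN glands (n = 4) came from MMTV-neu;Fsp-Cre mice (replicate 1) or from MMTV-neu;p53wm-R172H/+ mice without Cre (replicates 2, 3 and 4), MGNP glands (n = 4) from MMTV-neu;p53wm-R172H/+;Fsp-Cre mice, and MGWT glands (n = 3) from wild-type mice that the paper calls age-matched. All mice were female, and those with neu were on a mixed FVB, C57 and BALB/c background. The paper gives no strain for the wild-type mice. The MGN and MGNP mice bore tumors elsewhere, and only MGWT lacked neu. TNP replicates 1 and 2 carry the same number in their library names, which may be that of an animal. Counts per gene do not show whether the p53 allele had recombined.

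Licensing is the loading of the replicative helicase onto chromatin before S phase. The origin recognition complex and Cdc6 receive Cdt1, which brings the MCM2-7 hexamer, made of the 6 subunits Mcm2 to Mcm7. Mcm10 acts later, when the loaded helicase is switched on, and geminin, the product of Gmnn, binds Cdt1 and blocks reloading. These genes are transcribed in cycling cells, and MCM proteins are used in pathology as marks of proliferative competence.

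Recovered reads per library ranged from 20899152 to 27262440 in TN, TNP, MGN and MGNP and from 54677315 to 62645459 in MGWT, so that the greater depth cannot be told apart from the wild-type group. Over the members, the fewest reads behind a value were 24, for Cdc6 in MGNP replicate 4, and the most were 5297, for Mcm6 in TN replicate 2. The tissues differed in cell type markers. The mean log2 level of 9 luminal markers was 13.19 to 13.41 in MGWT, 10.32 to 11.6 in MGN, 9.79 to 11.55 in MGNP and 12.49 to 13.15 in the tumors. The 9 white adipocyte markers had a mean of 5.43 to 6.59 in MGWT and of 13.3 to 14.82 in MGN and MGNP. In bulk RNA, fewer cells of a type and less RNA per cell cannot be told apart.

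Genes are placed on GRCm38 as GENCODE vM21 annotates them. Mcm2 lies at chr6:88883474-88898780 (minus strand), Mcm3 at chr1:20802968-20820312 (minus), Mcm4 at chr16:15623897-15637400 (minus), Mcm5 at chr8:75109569-75128439 (plus) and Mcm6 at chr1:128331590-128359664 (minus). Mcm10 lies at chr2:4989714-5012791 (minus), Cdc6 at chr11:98907801-98923940 (plus) and Gmnn at chr13:24751845-24761923 (minus), and the loci of Mcm7 and Cdt1, which overlap other genes, are given with their values.

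The promoters are shown because the members moved together across libraries, as described below. RefSeq promoter sequences (GRCm38.p6, 250 bases before to 50 after a transcript start) were matched for 8 of the 10 genes, with 9 promoters in all since Mcm7 had a pair. Mcm4 and Gmnn were not matched. An E2F site was searched on both strands in 4 spellings, TTTGGCGC, TTTCCCGC, TTTGCCGC and TTTCGCGC. E2F factors are the cell cycle regulators held in check by the retinoblastoma family. At least 1 such octamer was found in 6 of 8 genes, against 2.26% of all 32851 promoters of the same length. Of 75 other replication and cell cycle genes, 22 held at least 1 (29.3%). These 75 come from the fixed lists described below, which include 9 proliferation markers. In the lines below, capitals mark the octamers, or CCAAT boxes in the Mcm10 sequence, and each is read 5′ to 3′ on the strand of its gene.
Mcm5 (chr8:75109309-75109508, plus strand, the 200 bases before the start): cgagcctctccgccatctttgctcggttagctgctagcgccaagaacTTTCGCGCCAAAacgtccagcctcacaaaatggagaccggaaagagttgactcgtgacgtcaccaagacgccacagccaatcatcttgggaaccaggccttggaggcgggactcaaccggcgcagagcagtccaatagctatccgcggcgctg
Mcm6 (chr1:128359706-128359905, minus strand, the 200 bases before the start): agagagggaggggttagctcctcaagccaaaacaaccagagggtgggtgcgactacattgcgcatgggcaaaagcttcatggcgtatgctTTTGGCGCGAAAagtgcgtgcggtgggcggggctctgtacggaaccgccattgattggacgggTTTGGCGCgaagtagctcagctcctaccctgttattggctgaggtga
Cdc6 (chr11:98908003-98908030, plus strand): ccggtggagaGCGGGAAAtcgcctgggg
Mcm3 (chr1:20820276-20820303, minus strand): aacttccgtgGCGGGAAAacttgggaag
Mcm7 (chr5:138172031-138172058, minus strand): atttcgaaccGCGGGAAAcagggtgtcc
Cdt1 (chr8:122568037-122568064, plus strand): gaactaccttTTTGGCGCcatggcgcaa
Mcm10 (chr2:5012792-5012911, minus strand, the 120 bases before the start): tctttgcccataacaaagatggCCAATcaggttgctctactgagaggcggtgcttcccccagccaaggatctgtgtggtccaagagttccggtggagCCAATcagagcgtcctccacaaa

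In Mcm5 and Mcm6, 2 octamers on opposite strands overlap in 1 run of 12 bases. It reads TTTCGCGCCAAA in Mcm5 and TTTGGCGCGAAA, its reverse complement, in Mcm6. After this run was seen, all promoters were searched for it on both strands, and 4 of 32851 held it, those of Mcm5, Mcm6, Msh3 and Mycn. The CCAAT box, the letters CCAAT that the factor NF-Y binds, was found in 6 of 8 genes (Mcm2, Mcm3, Mcm5, Mcm6, Mcm7 and Mcm10) against 37.4% of all promoters. It was found in 40 of the 75 other replication and cell cycle genes (53.3%). TTTGAA, 1 spelling of the CHR element through which many mitotic genes are regulated, was found in Mcm2 alone among the 8, against 17.9% of all promoters. It was found in 17 of the 75 other genes (22.7%), whose lists include mitotic genes. A match of letters is a description of the sequence, and none of these counts bears on binding in these tissues.

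**Figure D1:**
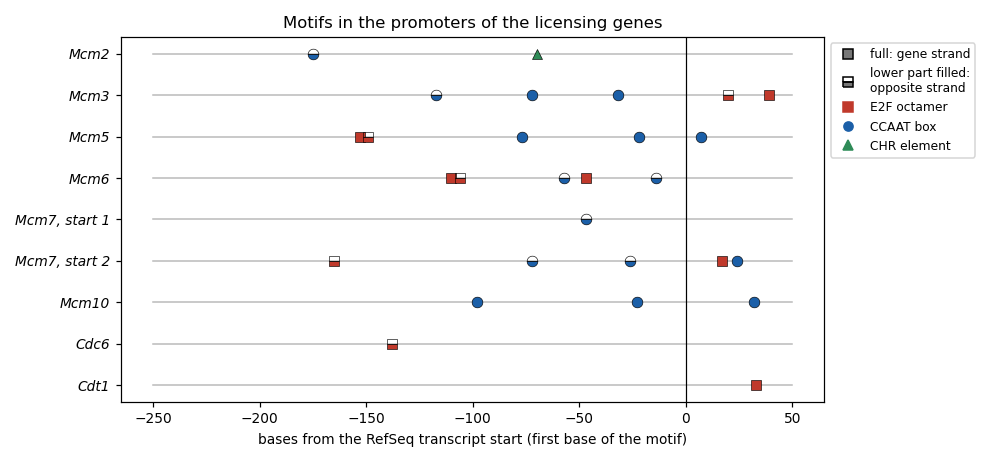
Positions of the searched motifs in the 9 RefSeq promoters of 8 licensing genes, as the distance of the motif's first base from the transcript start (bases). Squares are E2F octamers, circles CCAAT boxes and the triangle a CHR element; full symbols lie on the gene strand and symbols filled in the lower part on the opposite strand, and the octamers lie between -165 and 39.

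The 6 subunits of the helicase were higher in TN tumors than in MGN glands. Of the MGN glands, only replicate 1 had the MMTV-neu;Fsp-Cre genotype of the TN tumors. For MGN replicates 2, 3 and 4, with p53wm-R172H/+ and without Cre, tissue and genotype cannot be told apart. Mcm5 was measured at 1207, 3952, 1242 and 2782 normalized counts in TN replicates 1 to 4, and at 512, 596.5, 913 and 596 in MGN. Mcm6 was at 1671, 5581, 1638 and 3889.9 in TN and at 627, 788, 1329 and 972 in MGN. For both subunits the lowest tumor lay above the highest gland, and TN replicates 2 and 4 lay far above replicates 1 and 3. The difference was 1.66 on the log2 scale (SE 0.40, limma adjusted p = 0.00814) for Mcm5 and 1.63 (SE 0.43, adjusted p = 0.0118) for Mcm6. Log2 fold changes here and below are of the normalized count plus 1, so that those of weakly expressed genes are understated.

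The other subunits were also higher in TN, with replicates 2 and 4 the highest tumors. Mcm2, which with Mcm5 forms the gate of the ring, was at 761, 2440.2, 908 and 1923 in TN against 406, 513, 628 and 475 in MGN, a difference of 1.42 (SE 0.37, adjusted p = 0.0118). Mcm3 was at 1017, 2865, 968.5 and 2097 in TN and at 574, 718, 767 and 717 in MGN. Mcm4 was at 1247.5, 3809, 1123 and 2368 in TN and at 842, 813, 979.5 and 946.5 in MGN. Groups did not overlap for either gene, and the differences were 1.18 (SE 0.34, adjusted p = 0.0201) for Mcm3 and 1.08 (SE 0.36, adjusted p = 0.0333) for Mcm4. Mcm7, with 1729, 3947, 1654 and 3688 in TN and 999, 1101, 1437 and 1034 in MGN, differed by 1.17 (SE 0.31, adjusted p = 0.0136). Its gene lies on chromosome 5 (chr5:138164583-138172422, GRCm38, minus strand) and overlaps Cops6 and Ap4m1 on the other strand. Whether reads were counted by strand is not given in the sources used here, so its counts are uncertain by that much. Cops6 and Ap4m1 were themselves 0.41 and 0.47 higher on the log2 scale in TN (adjusted p = 0.0451 and 0.0452), both under 2-fold.

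Mcm10 and Cdc6 had the largest differences of the 10 genes. Mcm10 was at 346.5, 1066, 273 and 936 in TN and at 118.5, 105, 189.7 and 80.3 in MGN, a 4.7-fold difference (log2 2.23, SE 0.49, adjusted p = 0.00524). Cdc6, the ATPase that recruits Cdt1 and the helicase to origins, was at 270.4, 837, 232 and 475 against 107, 124, 164 and 96.8, a 3.28-fold difference (log2 1.71, SE 0.40, adjusted p = 0.0076). In both genes all tumors lay above all glands. Cdt1, the helicase chaperone, was at 227, 627, 250.4 and 459.8 in TN and at 107, 152, 227 and 161 in MGN. Its lowest tumor was level with its highest gland, and the difference of 1.19 passed the test (SE 0.38, adjusted p = 0.0263). Cdt1 shares its locus (chr8:122568015-122573554, plus strand) with the readthrough gene Gm20388, which was listed at 0 in all 19 libraries.

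Gmnn, the inhibitor, was at 135, 674, 177 and 358 in TN and at 90.4, 109, 145 and 123 in MGN. The groups overlapped, and the log2 difference of 1.25 missed the threshold (SE 0.48, adjusted p = 0.0533).

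In all, 9 of 10 members were called higher in TN than in MGN at an adjusted p under 0.05 and at least 2-fold, and none lower, where 12.8% of all 17950 genes tested were called higher and 22.3% lower. The median log2 fold change of the members was 1.34, against -0.05 over all genes tested. Groups did not overlap for 8 members, against 22.7% of all genes. For each of these 8 genes the two-sided exact permutation test gave p = 0.0286, the smallest that 4 against 4 samples allow, and p = 0.109 after adjustment over 80 such tests of members. The count fell to 5 without TN replicate 2 and to 5 without TN replicate 4. In these fits 2217 of all 18584 and 2217 of all 18580 genes tested were called higher. These tumors, the highest in all members, were low in milk proteins, with a mean log2 level over 6 milk genes of 6.21 in replicate 2 and 8.36 in replicate 4 against 13.56 and 13.8 in replicates 1 and 3. The part of this in the result was not tested. Beside the members, 7 of 9 luminal markers were called higher in TN than in MGN and 1 lower. Of the basal epithelial markers 5 of 5 were called lower, as were 9 of 9 adipocyte and 6 of 8 fibroblast markers. Also lower were 3 of 5 macrophage and 4 of 4 endothelial markers, 5 of 5 B cell genes tested and 5 of 5 T cell genes. Of 5 milk genes tested 1 was called higher, and none of 10 skeletal muscle markers was called. The part of these cell types was not tested either.

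**Figure D2:**
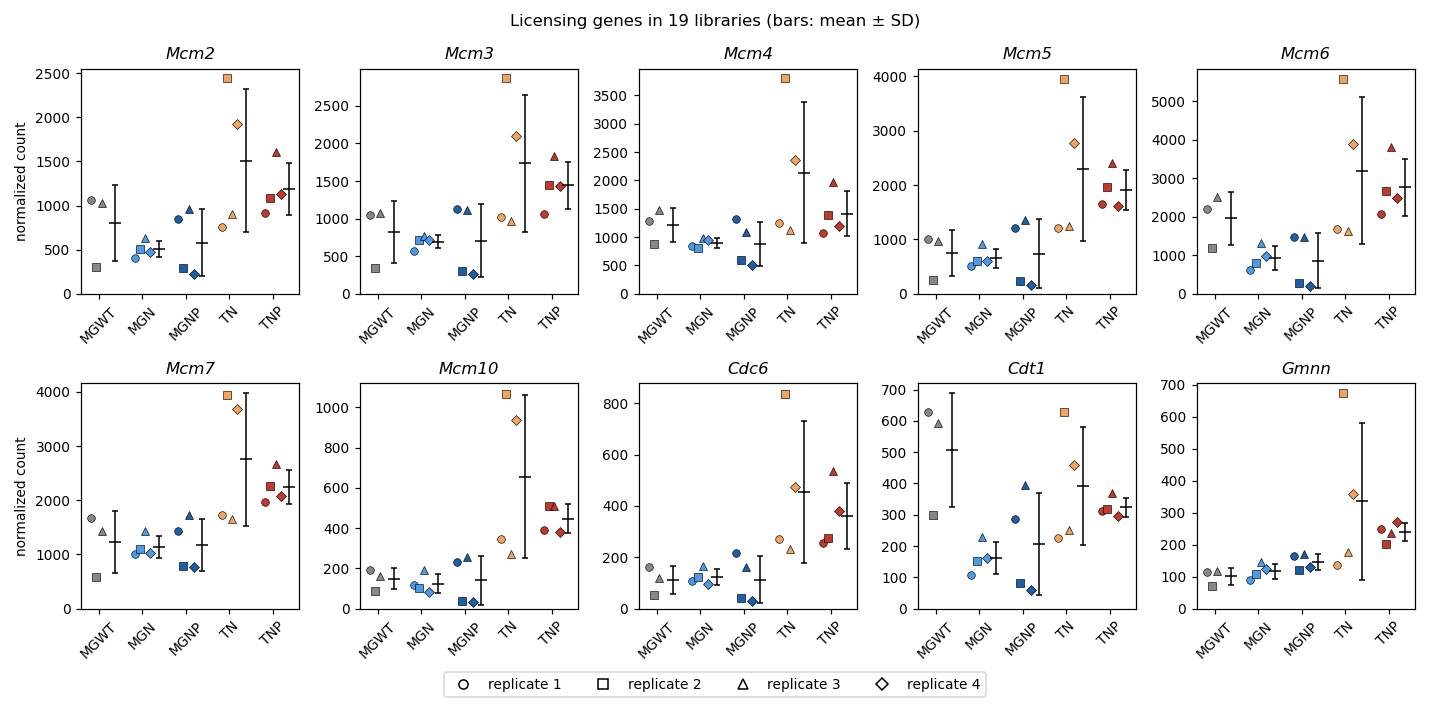
Normalized counts of the 10 licensing genes in 19 libraries (linear axes from 0), with symbols for replicates 1 to 4 and bars for the mean ± SD of each group. TN replicate 2 is the highest tumor in all 10 panels, and MGNP glands split into replicates 1 and 3 above replicates 2 and 4.

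In NP mice the same comparison, TNP against MGNP, rested on glands that disagreed with each other. Mcm5 was at 1656, 1959, 2409 and 1621 in TNP, and at 1208, 238, 1351 and 156 in MGNP. Mcm6 was at 2068.5, 2681, 3816 and 2487 in TNP, and at 1477, 287, 1475 and 214 in MGNP. In these and in the other 8 members, MGNP replicates 2 and 4 both lay below replicates 1 and 3. Tumors did not overlap with glands for either gene, with log2 differences of 1.92 (SE 0.68, adjusted p = 0.0378) for Mcm5 and 2.15 (SE 0.64, adjusted p = 0.0199) for Mcm6.

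For Mcm10 the TNP values of 389, 507.5, 509 and 378 compared with 233, 35.7, 257 and 34.9 in MGNP, a log2 difference of 2.23 (SE 0.69, adjusted p = 0.0221). Cdc6 was at 256, 274.5, 536 and 378 in TNP and at 216, 42.8, 164 and 31.0 in MGNP (log2 2.04, SE 0.62, adjusted p = 0.0216). Mcm7 was at 1962, 2256, 2672 and 2083 in TNP and at 1434.5, 779, 1720.0 and 773.5 in MGNP (log2 1.01, SE 0.28, adjusted p = 0.0132). All 4 tumors lay above all 4 glands for these 3 genes. Mcm2 passed the test although its groups overlapped, at 910.4, 1084.5, 1601.5 and 1134 in TNP and 849, 287, 957.5 and 219.5 in MGNP (log2 1.28, SE 0.48, adjusted p = 0.0478).

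The remaining members were not called. Mcm3 was at 1067, 1442, 1830.1 and 1437 in TNP and at 1134, 308, 1121 and 265 in MGNP (log2 1.32, adjusted p = 0.0508). Mcm4 was at 1068.5, 1398, 1972 and 1199.9 in TNP and at 1328, 592, 1091 and 509 in MGNP (log2 0.75, adjusted p = 0.0839). Cdt1 was at 311, 317, 369 and 296 in TNP and at 286, 82.8, 395 and 59.4 in MGNP (log2 1.06, adjusted p = 0.144). For these 3 genes at least 1 gland reached the level of the tumors. Gmnn differed in kind, at 248, 201.3, 236 and 272 in TNP and at 164, 119.9, 170.1 and 129 in MGNP. Its groups did not overlap and its spread was small (log2 0.72, SE 0.20, adjusted p = 0.0155), so that only the 2-fold limit kept it from being called.

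Thus 6 of 10 members were called higher in TNP than in MGNP and none lower, beside 14.7% of all 17880 genes tested called higher and 24.0% lower, and the median of the members was 1.30 against -0.07 for all genes. Groups did not overlap for 6 members, against 25.2% of all genes. The muscle content of the MGNP glands was highest where the members were lowest. The mean log2 level of 10 skeletal muscle genes was 14.12, 17.03, 9.1 and 16.37 in MGNP replicates 1 to 4, with all 10 genes detected in each, and 3.57 to 8.75 in TNP. These genes took 7.07% and 3.82% of the reads in replicates 2 and 4, the glands lowest in licensing genes, and 1.42% and 0.0446% in replicates 1 and 3. Lymphocyte genes were high in the MGNP glands where the members were high. The mean of 7 B cell and germinal centre genes was 9.43, 4.67, 10.23 and 7.13 in MGNP and 1.9 to 5.2 in TNP, and that of 5 T cell genes was 9.3, 5.6, 9.58 and 6.2 in MGNP. The part of these cell types in the result was not tested beyond the values that follow.

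Without MGNP replicates 2 and 4, no member was called (limma), where 2515 of all 18934 genes tested were called higher. Of the members, 6 had an unadjusted p under 0.05, and their median log2 fold change was 0.51. The largest differences left were 0.88 for Cdc6, 0.87 for Mcm6 and 0.85 for Mcm10. Without MGNP replicates 1 and 3, 9 members were called, where 3072 of all 18812 genes tested were called higher, and the median was 2.25. With the muscle level as a covariate no member was called, where 1704 of all 17880 genes tested were called higher. No member had an unadjusted p under 0.05 in that fit, and the median was 0.35. The muscle level did not overlap between MGNP and TNP, so that fit cannot separate muscle from the difference between tumor and gland. In the fits that left out MGNP glands, the size of the difference in NP mice depended on which glands were taken. Which of the 2 kinds of gland is nearer to normal tissue was not tested. Leaving out TNP replicate 3, the tumor highest in 9 members, also left no call, where 2550 of all 18582 genes tested were called higher. In that fit 6 members had an unadjusted p under 0.05, and the log2 fold changes of the members were 0.58 to 2.16. Of the other libraries, leaving out MGNP replicate 2 left 1 call, and leaving out MGNP replicate 4, TNP replicate 2 or TNP replicate 4 left 3. Over all genes tested, 2401 to 2551 were called higher in these fits. With TNP replicates 1 and 2, which share a number in their library names, averaged into 1 sample, 4 members were called and the median was 1.37.

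**Figure D3:**
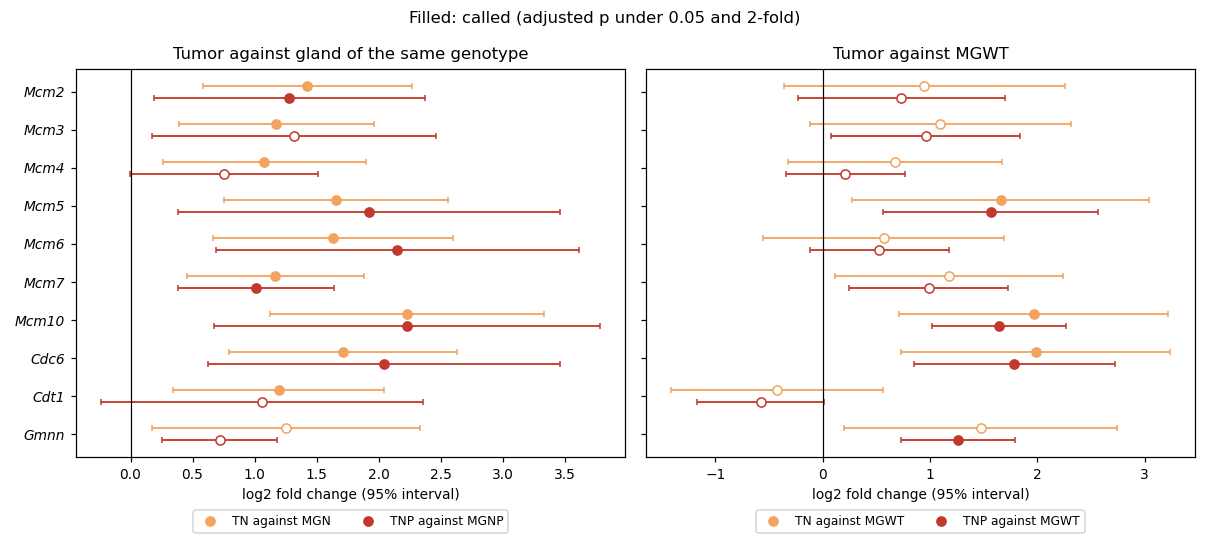
Log2 fold changes with 95% intervals for the 10 members, TN against MGN and TNP against MGNP (left) and both tumor groups against MGWT (right), in TN (orange) and TNP (red). MGN replicates 2, 3 and 4 did not have the genotype of the TN tumors. Filled points passed an adjusted p of 0.05 and 2-fold, and Cdt1 is the 1 gene left of 0 in both comparisons with MGWT.

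Between TNP and TN tumors, which addresses fibroblastic mutant p53, no difference in the licensing genes passed the test. None of 10 members was called by limma and none had an unadjusted p under 0.05, beside 0.0421% of all 16638 genes tested called in either direction. Neither edgeR nor DESeq2 called a member. All 10 log2 fold changes were below 0, from -0.46 for Mcm4 (95% interval -1.34 to 0.42) to -0.04 for Mcm6 (-0.96 to 0.88). The groups overlapped for every member. The spread itself was unequal. Mcm5 averaged 2295.8 ± 1326 in TN and 1911 ± 365 in TNP (SD, n = 4 each), and Cdt1 391 ± 189 and 323 ± 31.8. The upper bounds of the intervals were 0.42 to 0.88 and the lower bounds -1.34 to -0.88 on the log2 scale, so alike levels were not shown. Without TN replicate 2 the median log2 fold change turned from -0.20 to 0.14.

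Between MGNP and MGN glands the limma, edgeR and DESeq2 fits each called 0 of 10 members, and none had an unadjusted p under 0.05 in limma, beside 0% of all 18563 genes called by limma. The MGN glands kept close together, with Mcm4 at 895.1 ± 80.4 and Mcm3 at 694 ± 83.2 (SD, n = 4), whereas the MGNP glands spread widely, with 879.9 ± 394 and 707 ± 486. Highest over lowest gland was 8.64 for Mcm5 in MGNP and 1.78 in MGN. For Gmnn it was 1.42 and 1.6, so the split between the MGNP glands was narrow for the inhibitor. Leaving out MGNP replicates 1 and 3 gave 5 members called lower in MGNP (Mcm3, Mcm5, Mcm6, Mcm10 and Cdc6, from -1.27 to -1.85), where 225 of all 19399 genes tested were called lower and 1053 higher, and leaving out replicates 2 and 4 gave none, with a median of 0.72 and 8 members at an unadjusted p under 0.05. The direction of the difference between the gland groups thus turned with the glands taken.

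Whether tumor and gland differed to another extent in NP than in N mice was tested as an interaction over 16 samples. None of the members passed in limma, edgeR or DESeq2, and none had an unadjusted p under 0.05 in limma, beside 0% of all 19367 genes called by limma. The contrasts ranged from -0.54 for Gmnn (95% interval -1.67 to 0.60) to 0.52 for Mcm6 (-1.25 to 2.28). The median over the members was -0.07, and it was -0.87 without MGNP replicates 2 and 4 and 1.06 without replicates 1 and 3, with no member called by limma in either case and 2 and 4 members at an unadjusted p under 0.05.

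The wild-type glands were taken as a second reference for the gland level. Cdt1 was at 628, 299 and 593 in MGWT, above all 4 MGN glands, and the log2 difference of MGN from MGWT was -1.62 (SE 0.33, adjusted p = 0.00334). Mcm6 was at 2192.5, 1188.5 and 2505.5 in MGWT, and MGN was lower by a log2 value of -1.06 (SE 0.32, adjusted p = 0.0193), although the highest MGN gland lay above MGWT replicate 2. These were the 2 of 10 members called lower in MGN, with none higher. Of all 19017 genes, 17.9% were called lower, near the share of the members, and 19.1% higher. The median over the members was -0.17, against 0.02 for all genes, and 1 member, Cdt1, did not overlap, against 29.8% of all genes lower without overlap. The remaining 8 members lay between -0.48 for Mcm2 and 0.27 for Cdc6.

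MGWT replicate 2 was the lowest of its group in all 10 genes, with Mcm2 at 304 beside 1068 and 1034, Mcm3 at 345 beside 1045 and 1069, and Mcm5 at 261 beside 1014 and 976. Its luminal mean of 13.26 lay between those of the other libraries of the group (13.19 and 13.41). Leaving it out raised the count of members called lower in MGN to 3, and leaving out any of MGWT replicate 1, MGWT replicate 3 or MGN replicate 1 lowered it to 1. Over all genes tested, 3114 to 3293 were called lower in these fits. Against MGWT, the MGNP glands had 0 of 10 members called by limma, edgeR or DESeq2 and 1 at an unadjusted p under 0.05 in limma, Cdt1 at -1.64 (adjusted p = 0.0901), beside 32.6% of genes called in either direction. Of the 95 other replication and cell cycle genes, 5 were called lower in MGN than in MGWT and 1 higher. Over all 19017 genes the shares called were larger, 17.9% lower and 19.1% higher. The 5 were Pcna, Pold1, Dtl, Cdkn1a and Rb1 and the 1 was Gins4, all named after their values were seen. Dtl is the receptor of the ligase that marks Cdt1 for destruction on PCNA, and its log2 difference was -1.80.

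In tumors against MGWT, Cdc6, Mcm10 and Mcm5 were called higher in both genotypes. In TN these 3 of 10 members were called, against 17.4% of genes called higher, with log2 values of 1.99, 1.97 and 1.66 (adjusted p = 0.0152, 0.0158 and 0.0447). In TNP 4 were called, against 19.8% of genes, with 1.78 for Cdc6, 1.64 for Mcm10, 1.57 for Mcm5 and 1.26 for Gmnn (adjusted p = 0.00431, 0.00074, 0.0116 and 0.00137). Gmnn stood at 115, 71.3 and 117 in MGWT, below every tumor. Cdt1 alone had a negative value in both, -0.43 in TN (95% interval -1.42 to 0.57) and -0.58 in TNP (-1.17 to 0.01), and it was not called. The 2 comparisons share the MGWT libraries. Without MGWT replicate 2 no member was called in TN by limma, with 2 at an unadjusted p under 0.05, and 3 were called in TNP. In TN the count rose to 5 without TN replicate 1 or 3. Over all genes tested, 2778 to 3509 were called higher in these fits.

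Put together by library, Gmnn and Cdt1 gave an order that neither gene shows on its own. The log2 value of Gmnn minus that of Cdt1, which compares libraries and is not a ratio of molecules, was -2.44, -2.05 and -2.33 in MGWT. It was -0.65 to -0.24 in MGN, -0.74 to 0.11 in TN and -0.65 to -0.12 in TNP, so that MGWT lay apart from all 16 libraries with neu. MGNP glands ran from -1.21 in replicate 3 and -0.80 in replicate 1 to 0.53 in replicate 2 and 1.11 in replicate 4, the pair rich in muscle having the highest values. The adipocyte markers, low in MGWT (5.43 to 6.59), were also low in the tumors (3.87 to 9.19). Basal epithelial markers were lower than in MGWT in every group with neu. The median log2 fold change of 5 such markers against MGWT was -3.075 in MGN, -2.805 in MGNP, -6.64 in TN and -4.61 in TNP. The part of cell types in the order of Gmnn and Cdt1 was not tested. The wild-type genotype, the depth and the cell types of MGWT cannot be told apart here, and the paper gives no strain for these mice.

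Within the hexamer, which holds each subunit once, transcripts were not level. Normalized counts were divided by the length of the longest principal transcript of each gene in the annotation. In TN tumors the mean per kb was 1098 ± 656 for Mcm6, 930.0 ± 416 for Mcm7, 679 ± 392.3 for Mcm5, 595 ± 348 for Mcm4, 573 ± 302 for Mcm3 and 447 ± 239.7 for Mcm2 (SD, n = 4). Each of these means lay within the SD of its neighbours in the order, but that SD is between libraries and does not measure differences within a library. Mcm2 lay below Mcm3, Mcm4 below Mcm5 and Mcm5 below Mcm7 in every TN tumor. Mcm3 and Mcm4 changed order between tumors, and so did Mcm6 and Mcm7. In the tighter TNP group the means were 949.6 ± 257, 757 ± 104.7, 565 ± 108, 393 ± 111, 476 ± 103 and 351 ± 87.6 in the same order of genes. Mcm6 was the highest subunit in MGWT, TN and TNP, and Mcm7 in MGN (386 ± 67.8) and MGNP (397 ± 161). Mcm2 was the lowest in 4 groups and Mcm5, at 222 ± 126 beside 238 ± 128 for Mcm2 (n = 3), in MGWT. The highest mean exceeded the lowest by 2.32 to 3.04 times. With the union of all annotated exons as the length, which for Mcm2 is 6956 bases in place of 3371, it was 3.16 to 3.65 times and Mcm2 was the lowest in all 5 groups. Within the gland lowest in licensing genes, MGNP replicate 4, the subunits were not reduced evenly, with 46.2 and 73.7 per kb for Mcm5 and Mcm6 and 141.8 and 261 for Mcm4 and Mcm7.

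The other members stood below most subunits on the same scale. In TN the mean per kb was 298 ± 218 for Gmnn, 179 ± 86.3 for Cdt1, 177 ± 108 for Cdc6 and 134.7 ± 83.0 for Mcm10 (SD, n = 4). In MGWT the order was another, with Cdt1 at 231.5 ± 82.7, level with Mcm5 and Mcm2, above Gmnn at 89.8 ± 23.0, Cdc6 at 43.1 ± 21.7 and Mcm10 at 30.4 ± 10.8 (n = 3). In MGN, Cdt1 stood at 73.8 ± 22.7 and Gmnn at 103.5 ± 20.2 (n = 4). These means differed by less than the sum of their SDs, while within each MGN gland Gmnn lay above Cdt1 on this scale.

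**Figure D4:**
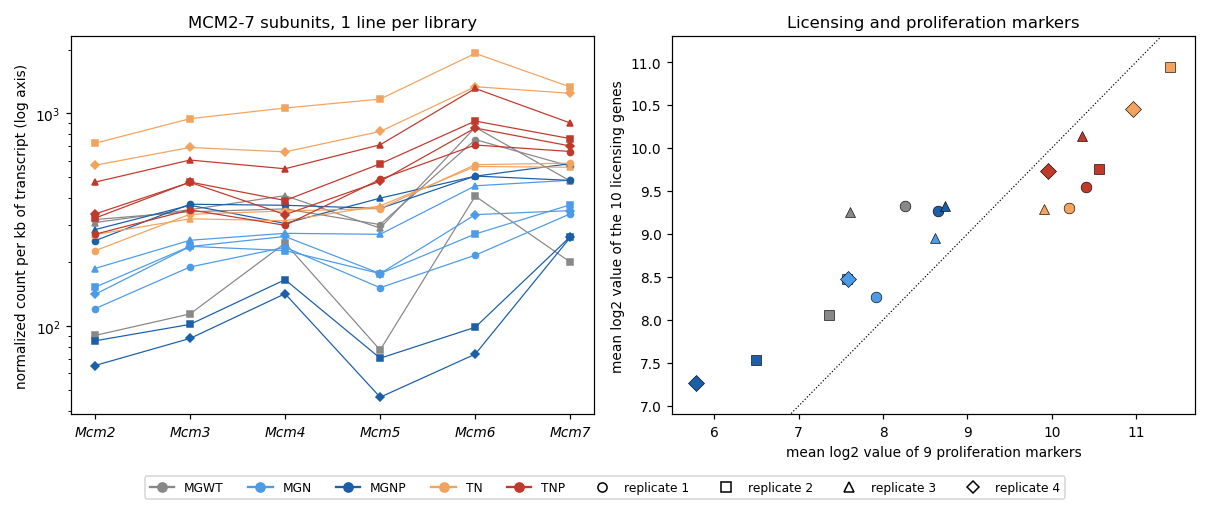
Left, normalized counts per kb of transcript for Mcm2 to Mcm7 (log axis), 1 line per library. Right, mean log2 level of the 10 licensing genes against that of 9 proliferation markers, 1 point per library with equality dotted; the 11 glands lie above the line by 0.34 to 1.66 and the 8 tumors below it by 0.21 to 0.90.

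Set beside proliferation markers, licensing genes were less steep. The 9 markers, mitotic genes such as Mki67, were all called higher in both TN against MGN and TNP against MGNP, with medians of 2.77 and 2.90, more than the 1.34 and 1.30 of the members. The mean log2 level of the members exceeded that of the markers in each of the 11 glands, by 0.34 to 1.66. It was under that of the markers in each of the 8 tumors, by 0.21 to 0.90. These levels are not divided by transcript length, so where they are equal depends on the genes listed. Against luminal markers the order differed, with members minus luminal markers at -5.21 to -3.86 in MGWT, -2.89 to -1.84 in MGN, -3.79 to -1.99 in MGNP, -3.21 to -1.89 in TN and -3.30 to -2.94 in TNP. On that scale tumors and the glands of neu mice overlapped, and MGWT lay lowest. Which cells carried the transcripts was not tested.

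The other replication and cell cycle genes were taken as fixed lists. Over all genes tested, 12.8% were called higher in TN against MGN and 14.7% in TNP against MGNP. None of 6 origin recognition complex genes, to which the helicase is recruited, was called in TN against MGN or in TNP against MGNP by limma, with medians of 0.03 and -0.02. Likewise none of 4 other MCM family and MCM binding genes was called, with medians of 0.09 and 0.14. In the list for helicase activation and origin firing, 4 of 16 were called higher in TN (Dbf4, Cdc45, Gins2 and Ticrr) and 3 of 16 in TNP (Cdc45, Gins2 and Gins4), Dbf4 and Cdc45 being named after their values were seen. Gins2, a subunit of the complex that joins MCM2-7 in the active helicase, was 1.53 higher in TN (adjusted p = 0.00334) and 1.92 higher in TNP (adjusted p = 0.00469). Ticrr, which helps to load Cdc45, was 1.88 higher in TN (adjusted p = 0.0145) and 1.74 in TNP (adjusted p = 0.0855, not called), and Gins4 1.14 in TNP (adjusted p = 0.000247).

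At the fork, 12 of 25 genes were called higher in TN and 10 of 25 in TNP, with none lower, beside 12.8% and 14.7% of all genes higher. Pole2, a subunit of the leading strand polymerase, differed by 1.69 and 2.02 (adjusted p = 0.00835 and 0.00127), and Rfc5, a subunit of the clamp loader, by 1.68 and 1.97 (adjusted p = 0.000715 and 0.00367). Of 7 genes of nucleotide supply 6 were called higher in both. Tk1, thymidine kinase, differed by 2.99 and 2.73 (adjusted p = 0.00044 and 0.00364), and Rrm2, the small subunit of ribonucleotide reductase, by 2.95 and 3.16 (adjusted p = 0.00179 and 0.00277).

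Genes that limit or time licensing were called higher in 10 of 14 cases in TN and 7 of 14 in TNP, with none lower. Cdk1, the mitotic kinase, differed by 3.51 and 3.78 (adjusted p = 0.000451 and 0.00178). Its partner Ccna2 differed by 3.19 and 3.35 (adjusted p = 0.000955 and 0.0038), and Cdc20, an activator of the ligase that destroys geminin, by 2.89 and 3.35 (adjusted p = 0.000555 and 0.00291). Among 14 E2F and pocket protein genes, 2 were called higher in TN and none in TNP, and 1 was called lower in both. For both lists the shares over all genes were 12.8% higher and 22.3% lower in TN, and 14.7% and 24.0% in TNP. E2f8 was 1.86 higher in TN (adjusted p = 0.0046), Mybl2 1.49 higher (adjusted p = 0.0377), and Rb1, the retinoblastoma gene, lower by log2 values of -1.39 in TN and -1.32 in TNP (adjusted p = 0.00199 and 0.00114). Of the proliferation markers, Ccnb1 differed most in both, by 3.47 and 4.35 (adjusted p = 0.000678 and 0.00504), with Plk1 at 2.94 in TN and Bub1 at 3.18 in TNP.

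Over these 95 genes, proliferation markers included, 43 were called higher and 1 lower in TN against MGN, and 35 and 1 in TNP against MGNP. The shares over all genes were 12.8% higher and 22.3% lower, and 14.7% and 24.0%. Without the MGNP glands rich in muscle the second count was 24 higher and 1 lower, and without the other MGNP pair 54 and 2. None was called in TNP against TN or in MGNP against MGN.

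The members varied together within groups. Deviations of log2 values from the group mean gave 45 pairs of members over 19 libraries, with Pearson's r from 0.641 (Mcm10 and Gmnn) to 0.987 (Mcm2 and Mcm3) and a median of 0.917. With the mean of the other 9, Gmnn had r = 0.723 and the rest 0.92 to 0.981. These are descriptions, since the libraries share the contents of muscle, lymphocytes and milk genes given above. Among 14822 other genes with a mean of at least 50, the 10 most like the mean of the members were Wdhd1 (r = 0.99), Chaf1a, Fignl1, Chaf1b, Lig1, Exo1, Uhrf1, Chtf18, Tubb5 and Mtbp (r = 0.964). Wdhd1 is a fork protein that ties the helicase to the lagging strand polymerase, and Chaf1a and Chaf1b are subunits of the chromatin assembly factor at the fork. Of the 95 replication and cell cycle genes, 28 were among the top 100.

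A neighbour of a member moved against it. Prkdc, the catalytic subunit of the DNA-dependent protein kinase, starts head to head with Mcm4 on chromosome 16, with 466 bases between the starts. It was at 868, 1555, 961 and 1463.5 in TN and at 2910.4, 2209, 2363 and 2730.2 in MGN. The log2 difference was -1.11 in TN (SE 0.21, adjusted p = 0.00289) and -1.43 in TNP against MGNP (SE 0.17, adjusted p = 0.000221). Within the TN tumors Prkdc was still highest in replicates 2 and 4, as Mcm4 was.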

How the data were processed

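RNA sequencing of 19 mouse libraries was used (TN, TNP, MGN and MGNP, n = 4 each, and MGWT, n = 3). The labels name total RNA and a stranded total RNA kit, and the paper's methods an mRNA kit. The authors aligned reads to GRCm38 with TopHat2 (version 2.1.1) and Bowtie2. The counting tool and annotation are not given in the sources used here. The signal deposited by the authors is 1 table of DESeq2 normalized counts for 46078 genes. All values were whole multiples of a step per library within 0.05 reads, from which reads were recovered, and the 2 count tools below were run on these. Identifiers were matched to GENCODE vM21 (97.97% matched, 935 unmatched), with promoters from RefSeq.

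The members and gene lists were chosen with earlier results of these data known. Normalized counts, with 1 added and on the log2 scale, entered limma models (R 4.3.3, limma 3.58.1, lmFit and eBayes with a trend) over genes with at least 10 normalized counts in as many samples as the smaller group, using only the groups compared, with Benjamini-Hochberg adjustment over all genes tested. A gene was called at an adjusted p under 0.05 and 2-fold. Single members were also tested by two-sided exact permutation of the mean log2 value. Alternatives were edgeR (version 4.0.16, quasi-likelihood), DESeq2 (version 1.42.0), TMM scaling, other pseudocounts and filters, all groups in 1 fit, a replicate block, a muscle covariate, averaging TNP replicates 1 and 2, and leaving out libraries. Scripts were tested on simulated data. Whether replicates are separate animals is not stated for all, and p-values measure the spread between these samples.

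The genes named are all members, the 2 genes of each list with the largest change among those called in each tumor comparison, the 10 genes most like the members, and neighbours within 1000 bases on the opposite strand.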

Additional observations from a re-analysis of the deposited data

How the results depend on the processing

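Counts of members called are given with limma unless another tool is named. Of the recomputed counts 156 stayed within 1.5 times and 25 did not, and no called member changed sign under any alternative. In TNP against MGNP (6 called), edgeR called 2, the muscle covariate 0 and leaving out MGNP replicates 2 and 4, chosen after seeing the data, 0. In TN against MGWT (3 called), DESeq2 called 5 and the fit of all 5 groups 5, and in MGN against MGWT (2 called) the latter fit called 1 and in MGNP against MGWT (0 called) 2. Without MGNP replicates 1 and 3, also chosen after seeing the data, 5 were called in MGNP against MGN and 4 in MGNP against MGWT, all lower. Leaving out 1 library at a time gave 5 to 10 calls in TN against MGN, 0 to 8 in TNP against MGNP, 1 to 3 in MGN against MGWT, 0 to 1 in MGNP against MGWT, 0 to 5 in TN against MGWT, 3 to 6 in TNP against MGWT and 0 to 0 in TNP against TN, MGNP against MGN and the interaction. In TNP against MGNP the count was 1 without MGNP replicate 2, 3 without MGNP replicate 4 or without TNP replicate 2 or 4, and 0 without TNP replicate 3. Averaging TNP replicates 1 and 2, which share a number in their library names, gave 4 calls in TNP against MGNP and 5 in TNP against MGWT. It gave 0 in TNP against TN and the interaction. Same-numbered samples correlated in their deviations from group means at r = -0.28 to 0.319, in no comparison did every pair exceed 0.1, and the numbers were not taken as a pairing. In TNP against MGWT all 3 numbers correlated best with their own. A block on the replicate number gave 0 calls in TN against MGWT, 1 in MGNP against MGWT, 9 in TN against MGN and 6 in TNP against MGNP, and the causes of these moves were not tested. Uncalled members changed sign in 47 of 210 values in MGNP against MGN and in none of 180 in TN against MGN. edgeR moved the median of all genes in TN against MGN from -0.05 to 0.085. Over all genes, DESeq2 called 52 higher and 36 lower in TNP against TN, where limma called 7 in all, 406 and 114 in MGNP against MGN and 52 and 278 in the interaction, where limma called 0. edgeR called 0 in TNP against TN.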
